A study of Mus musculus with 6 samples.

Results

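Cytosolic ribosomal proteins were measured in resident macrophages of the mouse peritoneal cavity of mice with a conditional Gata6 deletion and of wild type mice. Gata6 is a transcription factor. The set was defined by gene symbol: every probe set annotated to a single gene whose symbol starts with Rpl or Rps followed by a digit, or is Rplp0, Rplp1, Rplp2 or Rpsa, without the Rps6k kinases and symbols containing -ps. It held 106 of 45101 probe sets and 50 of 18194 genes with a single-symbol probe set. The family was chosen with the comparison of the genotypes in view, so its values are a description. No p-value is given for a single member, and counts of members past a threshold stand beside the share over the whole array, with nothing read from them.

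The tested samples were 3 Gata6-KO pools, set against 3 Gata6-WT pools. Each pool held lavage cells of 2 to 3 mice aged 7 weeks, sorted for high CD11b and for little or no MHC class II, and was hybridised to 1 array. The Gata6-KO mice carried a conditional floxed deletion, the Gata6-WT mice were wild type, and the mice were sex-matched per the series design. Neither the Cre line nor the part of Gata6 that is deleted is named in the sources used here. The labels call the pools biological replicates.

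The cytosolic ribosome consists of a large and a small subunit, each built from ribosomal RNA and many different ribosomal proteins. Names that start with Rpl belong to the large subunit and names that start with Rps to the small one, and nearly all of these proteins are needed in equal copy number. Their mRNAs are among the most abundant in most cells. Their mRNA often starts within a run of pyrimidines, through which the kinase mTOR adjusts translation to nutrient supply. A few members have paralogs, such as Rpl22l1 beside Rpl22 and Rps27l beside Rps27, and ribosomal protein genes have many processed pseudogenes in mammalian genomes.

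Start regions are shown for Rps9, whose probe sets differed most from each other, and for Rps10, with 6 probe sets. They are also shown for Rps15 and Rpsa, among the 8 genes with the largest differences, and for the paralogs Rpl22l1 and Rps27l. Each is 60 bases, 40 before to 20 from the annotated transcript start on, 5′ to 3′ on the strand of the gene, from RefSeq on GRCm38.p6. Capitals mark the longest run (the first of equal ones) of at least 8 consecutive pyrimidines that reaches within 20 bases of the start. Rps15 and Rpsa hold no such run, and for Rps27l, with 2 starts in the table, the start with the longer run is shown.
Rps9, chr7:3704001-3704060, plus strand: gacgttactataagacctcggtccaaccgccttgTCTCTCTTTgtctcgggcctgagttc
Rps10, chr17:27635225-27635284, minus strand: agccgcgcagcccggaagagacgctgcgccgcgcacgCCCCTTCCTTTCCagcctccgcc
Rps15, chr10:80292391-80292450, plus strand: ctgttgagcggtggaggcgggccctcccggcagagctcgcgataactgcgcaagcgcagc
Rpsa, chr9:120127726-120127785, plus strand: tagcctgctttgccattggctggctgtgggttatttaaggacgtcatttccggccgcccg
Rpl22l1, chr3:28805468-28805527, plus strand: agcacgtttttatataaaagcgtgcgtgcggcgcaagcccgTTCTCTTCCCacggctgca
Rps27l, chr9:66946046-66946105, plus strand: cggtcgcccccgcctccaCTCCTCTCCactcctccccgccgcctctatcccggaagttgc

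RefSeq promoters of 300 bases (250 before to 50 after the start) were matched by symbol for 44 of the 50 member genes. Such a pyrimidine run, searched on the transcribed strand alone, was present in 23 of the 44 (52.3%), against 23.7% of all 27025 genes with a promoter in the table. The Ets core CGGAAG, or CTTCCG on the opposite strand, was present anywhere in the window of 31 of the 44 (70.5%) and of 18.8% of all genes. Mitochondrial ribosomal protein genes, whose products form a separate ribosome inside mitochondria, held the Ets core in 56.5% of 69 promoters and the pyrimidine run in 24.6%. The YY1 core AANATGGC, searched on both strands, was present in 15.9% of the member promoters against 6.96% of all, and TATAAA, likewise on both strands, in 13.6% against 15.7%. An Ets core written as CTTCCG can lie within a pyrimidine run only in part, since its last base is a purine. Each match is a description of letters in the window.

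Values are the deposited MAS5 probe set signals, in arbitrary intensity units, and differences are Gata6-KO minus Gata6-WT means of log2(signal + 16), with the standard error (SE) of the fit over all probe sets. A difference of -1 is a halving on that scale, and folds of dim probe sets are understated. Signals of different probe sets are not compared, since each probe set has its own binding strength. Of the 106 member probe sets 98 passed the filter on low signals, as did at least 1 probe set of 48 genes. The 8 that did not pass had signals of 1.51 to 135. Rpl3l, a paralog of Rpl3 known from striated muscle, and Rps16, a small-subunit protein, had no probe set that passed. One member, an Rps18 probe set, passed although its Gata6-KO mean of 5.76 on the log2 scale was below the limit of 5.99, against 6.36 in Gata6-WT.

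Array-wide checks came out as follows. Array medians lay between 79.7 and 88.5, and arrays correlated at r = 0.964 to 0.972 within a genotype and at 0.930 to 0.951 between genotypes. The 3 Gata6 probe sets differed by -1.15, -0.88 and -0.01, and since the deleted part is not known here, a probe set outside it checks nothing. Xist marked the replicates numbered 1 as apart from the other 4 arrays in both genotypes, with 102 in Gata6-KO and 113 in Gata6-WT against 11158 to 13749. The Y-linked Eif2s3y had 3494 in Gata6-KO and 3674 in Gata6-WT replicate 1 at its brighter probe set, against 1.22 to 15.3 on the other 4 arrays. By both genes the replicates numbered 1 read as male and the other 4 arrays as female. The other Eif2s3y probe set was at 39.1 or lower on every array. All 8 macrophage markers gave signals of 7567 to 84137 on every array, and 4 of them (Adgre1, Cd68, Icam2 and Timd4) were called lower in Gata6-KO. Of 35 measured markers of other cell types 12 passed the filter, of which 2 (S100a8 and Cd209a) were called lower and 0 higher, 23 lay below the filter, and their summed signal was 2120 to 2727 in Gata6-KO arrays and 3303 to 3782 in Gata6-WT arrays. Of the 4 genes of the MHC class II gate Cd74 and H2-Ab1 were called higher in Gata6-KO. The part of these markers in the results below was not tested.

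Rps9, a small-subunit protein near the path by which mRNA enters the ribosome, showed the widest disagreement between probe sets of any member. The suffix _x_at is Affymetrix's mark for a set with some probes that also match other transcripts, and _s_at for a set whose probes match more than 1 transcript. The _x_at probe set of Rps9 gave 1418, 1324 and 1066 in the Gata6-KO arrays, against 17930, 24209 and 30031 in the Gata6-WT arrays. Every Gata6-KO value lay far below every Gata6-WT value, and the Gata6-KO mean of 1269 ± 182 was 5.28% of the Gata6-WT mean of 24057 ± 6052 (SD, n = 3 each). The difference was -4.21 ± 0.19 (SE), 18.5-fold lower, and it lay between -4.40 and -4.03 when any 1 array was left out. By replicate number it was -3.65, -4.18 and -4.80 for numbers 1, 2 and 3.

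The other probe sets of Rps9 differed far less. The probe set without such a suffix letter gave 413, 366 and 444 in Gata6-KO, against 773, 837 and 992 in Gata6-WT, a difference of -1.06 ± 0.15 with no overlap between the genotypes. The _s_at probe set gave 29966, 28864 and 22389 in Gata6-KO, against 31064, 35470 and 37264 in Gata6-WT, a difference of -0.36 ± 0.13. There the lowest Gata6-WT array lay only just above the highest Gata6-KO array. Probe sequences were not used here, and which transcripts each set binds was not tested.

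The differences of the 3 Rps9 probe sets spanned 3.84 on the log2 scale. Among the 20 member genes with several tested probe sets this was the widest span, the only one over 1, and the median span was 0.24. Over all 5783 genes with several tested probe sets the median span was 0.39, 9.51% had a span over 1, 7 genes had a span over 3, and Rps9 ranked 2. The next members were Rpl7l1 with 0.95, Rps18 with 0.86 and Rps24 with 0.59. Rps9 was itself named when the family was chosen with earlier results of these data known, so its ranks are a description. The count of 1 depended on the arrays, with 3 genes when Gata6-KO replicate 1 was left out, and 2 genes when replicate 2 or 3 of Gata6-KO or replicate 1 or 2 of Gata6-WT was.

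**Figure D1:**
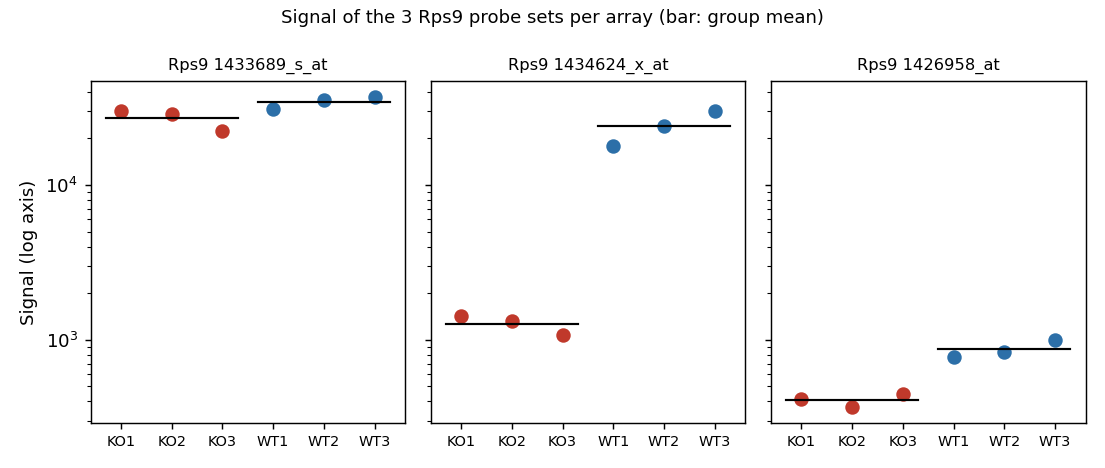
Signal of each Rps9 probe set on the 6 arrays, on a log axis, with 1 point per array and a bar at the group mean. The Gata6-KO arrays lie at 1066 to 1418 for the _x_at set, far under the Gata6-WT arrays at 17930 to 30031, while for the _s_at set the genotypes lie close together.

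Genes that lie beside Rps9 on mouse chromosome 7 in RefSeq order were looked up after these values had been seen, 6 protein-coding genes on each side. Mboat7, which encodes a lysophospholipid acyltransferase, fell by 1.07 ± 0.15 at its brightest probe set, with 1095, 975 and 920 in Gata6-KO against 1881, 1904 and 2617 in Gata6-WT (limma, adjusted p = 0.0021). Its other probe sets differed by -1.12 (adjusted p = 0.020) and 0.47 (adjusted p = 0.68, limma). Tsen34, a subunit of the tRNA splicing endonuclease and the nearest neighbour on that side, fell by 0.57 ± 0.11, with 1412 ± 69.5 in Gata6-KO against 2112 ± 157 in Gata6-WT (limma, adjusted p = 0.011). Its call was lost without Gata6-KO replicate 2, where the adjusted p was 0.0505.

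The remaining neighbours gave a mixed picture. Cnot3, a subunit of the main mRNA deadenylase complex, fell by 0.79 ± 0.18 at 1 probe set (limma, adjusted p = 0.021), a call held in 2 of the 6 leave-one-out fits, with adjusted p of 0.0166 to 0.0714. Its other probe set differed by -0.31 (adjusted p = 0.37). Tmc4 differed by -0.55, Leng1 by -0.22 and the splicing factor gene Prpf31 by -0.14 and -0.03, with limma adjusted p of 0.20, 0.43, 0.59 and 0.95. On the other side Pirb, an inhibitory receptor of myeloid cells, had 8169, 9205 and 6495 in Gata6-KO against 8585, 8448 and 9333 in Gata6-WT, a difference of -0.16 (limma, adjusted p = 0.52). The next 5 genes on that side had no single-symbol probe set in the annotation used here.

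Most other members were slightly lower in Gata6-KO. With each gene represented by its brightest tested probe set, 44 of 48 genes had a difference below 0, with a median of -0.34, quartiles of -0.42 and -0.22 and a range of -1.81 to 0.34. Over all 12511 genes the median was -0.04 and 53.8% had a difference below 0. These arrays cannot tell fewer cells of a type from less RNA per cell, and each array was scaled to a common trimmed mean, so every difference is relative to the rest of the array. The median of the members lay between -0.47 and -0.21 over the alternative settings, nearest to 0 with quantile normalization (-0.21).

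At an adjusted p under 0.05 over all probe sets in limma, 17 of the 98 member probe sets were called lower in Gata6-KO, 0 higher and 81 neither, where 5.67% of all 27022 probe sets were called lower and 5.12% higher. At an unadjusted p under 0.05 the members held 58 lower and 1 higher, where 13.1% and 11.9% of all probe sets were. The count of 17 turned on single arrays: it was 45 without Gata6-WT replicate 1, 9 without Gata6-WT replicate 2, 10 without Gata6-KO replicate 3, and 11 without either Gata6-KO replicate 2 or Gata6-WT replicate 3. Over all probe sets the count called lower was 1532 with all arrays and between 926 and 1227 without any 1 array. All 3 Gata6-KO values lay below all 3 Gata6-WT values at 56 member probe sets (57.1%) and above them at 2, both of Rps27l, where 16.3% and 14.8% of all probe sets did so. By gene, 8 of 48 were called lower and 0 higher in limma, where 7.46% and 5.61% of all genes were. At an unadjusted p under 0.05 the genes numbered 28 lower and 0 higher, where 15.9% and 11.9% of all genes were. At least 1 probe set was called lower for 13 of the 48 genes and for 8.60% of all genes.

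The difference was also set beside signal level and probe set type. Among the brightest probe sets, with a mean log2 signal over 14, the 61 members had a median of -0.36 with 58 below 0, and the 377 other probe sets had a median of -0.02. At a mean log2 signal of 10 or lower the median was -0.53 for 22 members and -0.02 for 20412 other probe sets. Of the 56 member probe sets without the suffix _x_at or _s_at 14 were called lower, where 5.54% of all probe sets of that kind were. Of the 39 with _x_at 2 were called lower, where 6.28% of all such probe sets were.

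**Figure D2:**
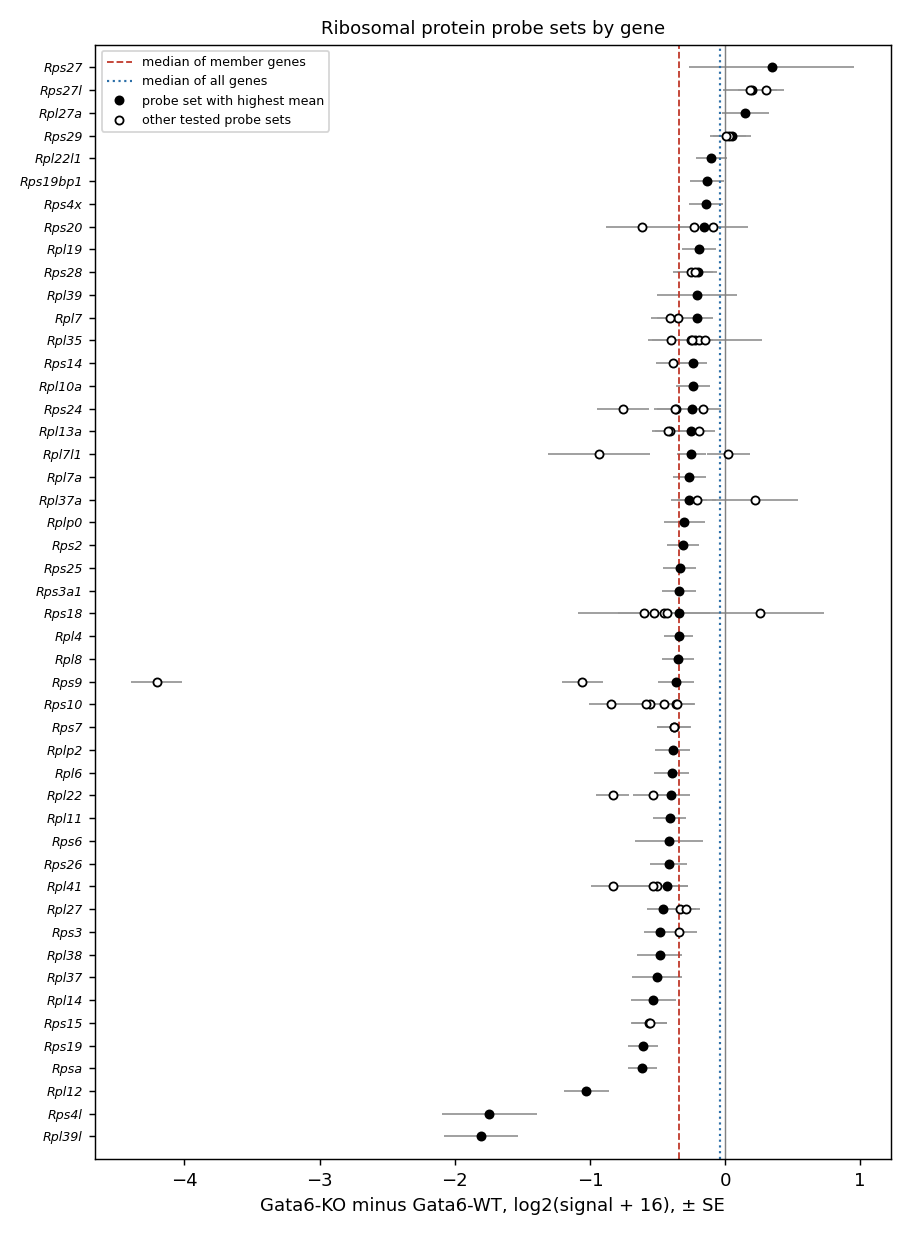
Difference between Gata6-KO and Gata6-WT for each tested member probe set, by gene, on the log2(signal + 16) scale, with the SE as a line and the genes ordered by their brightest probe set. Most points sit near the median of -0.34, Rpl39l, Rps4l and Rpl12 lie lower, Rps27, Rps27l, Rpl27a and Rps29 lie above 0, and 1 Rps9 probe set lies at -4.21.

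Leaving out the paralogs Rpl22l1, Rpl39l, Rps27l and Rpl7l1, the pseudogene Rps4l and the binding protein Rps19bp1, 42 genes encode ribosomal proteins proper. Of the 42, 21 had a difference within 0.1 of the median of -0.34 and 34 within 0.2. The quartiles of the 42 were -0.42 and -0.24, against -0.29 and 0.23 over all genes. Over the other probe sets with a mean log2 signal over 14 the quartiles were -0.30 and 0.19. The 22 large-subunit genes had a median of -0.35, with 21 below 0, and the 20 small-subunit genes a median of -0.34, with 18 below 0. By gene, 2 of the 22 large-subunit and 4 of the 20 small-subunit genes were called lower, beside 7.46% of all genes.

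In the large subunit Rpl12, part of the base of the stalk that binds translation factors, had the lowest difference by gene. Its only single-symbol probe set was dim, with a mean log2 signal of 9.19. Dim member probe sets had a median of -0.53, against -0.36 for the brightest. Whether the rank belongs to the gene or to the probe set was not tested. Rpl12 gave 340, 371 and 483 in Gata6-KO, against 740, 827 and 899 in Gata6-WT, a difference of -1.03 ± 0.17. The genotypes did not overlap, and the difference lay between -1.17 and -0.93 when any 1 array was left out. The stalk proteins themselves were nearer the median, with Rplp0 at -0.30 ± 0.15 and Rplp2 at -0.39 ± 0.13. Rplp0, often used as a reference gene in PCR, had 42155, 33258 and 36875 in Gata6-KO against 37274, 47829 and 54383 in Gata6-WT, and the genotypes overlapped.

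Rpl14, at a dim probe set with a mean log2 signal of 8.81, had 301, 390 and 384 in Gata6-KO against 462, 570 and 540 in Gata6-WT, a difference of -0.53 ± 0.17. Rpl37 had 4303, 4813 and 3268 in Gata6-KO against 4827, 5350 and 7496 in Gata6-WT, a difference of -0.50 ± 0.19. Neither overlapped between the genotypes, but for Rpl37 the gap was narrow and the difference was -1.19 between the replicates numbered 3 alone. Rpl11, which binds the p53 regulator Mdm2 when ribosome assembly is disturbed, differed by -0.41 ± 0.12.

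Rpl41, a very short basic peptide of the ribosome, was lower at each of its 4 probe sets, at -0.43, -0.51, -0.83 and -0.53. Rpl27a was the sole large-subunit gene above 0, with 859, 934 and 718 in Gata6-KO against 854, 824 and 595 in Gata6-WT, a difference of 0.15 ± 0.17. Its genotypes overlapped, and without 1 array the difference ranged from -0.01 to 0.26. The tested Rpl27a probe set was dim, with a mean log2 signal of 9.65.

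In the small subunit Rpsa, which is also known as a laminin receptor precursor, had 32232, 29108 and 29071 in Gata6-KO against 41250, 46920 and 50224 in Gata6-WT. The genotypes did not overlap, with a difference of -0.61 ± 0.11. Rps19, a gene mutated in the human disease Diamond-Blackfan anaemia, had 28431, 27837 and 25665 in Gata6-KO against 38157, 40697 and 46339 in Gata6-WT, a difference of -0.61 ± 0.11. Over the 6 leave-one-out fits the difference lay between -0.69 and -0.55 for Rpsa and between -0.67 and -0.53 for Rps19.

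Rps15, a small-subunit protein close to the decoding site, gave nearly the same difference at both of its probe sets. The brighter had 23438, 20032 and 19867 in Gata6-KO against 26594, 31408 and 36153 in Gata6-WT, a difference of -0.56 ± 0.13. The other had 20333, 21050 and 17543 in Gata6-KO against 24928, 29558 and 32580 in Gata6-WT, a difference of -0.56 ± 0.13. Over the 6 leave-one-out fits the difference of the brighter lay between -0.68 and -0.46. Rps10, near the mRNA entry side, was lower at all 6 of its probe sets, with differences from -0.85 to -0.36. Rps3, an entry-side protein with an additional role in DNA repair, differed by -0.48 ± 0.12 and -0.34 ± 0.13 at its 2 tested probe sets.

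Rps6, the best known substrate of the S6 kinases downstream of mTOR, had 741, 892 and 1239 in Gata6-KO against 1400, 861 and 1638 in Gata6-WT, a difference of -0.42 ± 0.25 with overlapping genotypes. Rps29 did not share the shift: its 3 probe sets differed by 0.05, 0.03 and 0.01, each with overlap. At the brightest Rps29 had 102912, 93832 and 92241 in Gata6-KO against 75404, 97353 and 108900 in Gata6-WT, and the difference changed sign with the arrays left out, from -0.10 to 0.17. Rps27, a zinc finger protein of the small subunit, had 467, 130 and 950 in Gata6-KO against 194, 252 and 574 in Gata6-WT, a difference of 0.34 ± 0.61. With that spread it ranged from -0.28 to 1.09 when 1 array was left out.

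The paralogs held the widest range. Rpl39l, a paralog of Rpl39 best known from the mouse testis, had 61.5, 110 and 143 in Gata6-KO against 331, 432 and 412 in Gata6-WT, 3.5-fold lower with a difference of -1.81 ± 0.27. Its parent gene Rpl39, a small protein at the exit tunnel, had 742, 311 and 546 in Gata6-KO against 699, 651 and 436 in Gata6-WT, a difference of -0.21 ± 0.30 with overlapping genotypes. Rps4l, annotated by RefSeq as a transcribed pseudogene, had 296, 280 and 858 in Gata6-KO against 1395, 1350 and 1556 in Gata6-WT, a difference of -1.74 ± 0.35. Gata6-KO replicate 3 stood apart from the other Gata6-KO arrays there, and without it the difference was -2.25. The probe sets of Rpl39l, Rpl39 and Rps4l were dim, with mean log2 signals of 7.76, 9.12 and 9.63. The X-linked Rps4x, which encodes the small-subunit protein itself, differed by -0.14 ± 0.13.

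Rpl22 and Rpl22l1, of which Rpl22 is known in mice to repress the expression of its paralog, differed by unlike amounts. The 3 probe sets of Rpl22 differed by -0.40 ± 0.14, -0.54 ± 0.14 and -0.83 ± 0.12, all without overlap. Rpl22l1 had 14801, 13303 and 12470 in Gata6-KO against 14294, 13217 and 16060 in Gata6-WT, a difference of -0.10 ± 0.11 with overlap. The difference between these paralogs was not tested. Rps27l, which is induced by p53 in human and mouse cells, was the only member gene above 0 without overlap at its brightest probe set. There it had 12253, 14213 and 13706 in Gata6-KO against 10599, 12232 and 12141 in Gata6-WT, a difference of 0.20 ± 0.11, and its other probe sets differed by 0.30 and 0.18. Rpl7l1, a nucleolar relative of Rpl7, had probe sets at -0.25, 0.03 and -0.93, against -0.21, -0.35 and -0.41 for Rpl7. Rps19bp1, a nucleolar protein that binds Rps19 and is no ribosomal protein, differed by -0.13 ± 0.13.

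The shift of the family varied with the array as well as with the genotype. After centring each gene on its mean over the 6 arrays, the member median was -0.10, -0.14 and -0.23 in Gata6-KO replicates 1, 2 and 3, against -0.01, 0.18 and 0.36 in Gata6-WT replicates 1, 2 and 3. Gata6-WT replicate 3 was the highest array for 41 of 48 genes and Gata6-KO replicate 3 the lowest for 32. Within Gata6-WT, replicate 3 exceeded replicate 1 by a median of 0.40, with 46 of 48 genes higher, which is more than the median difference between the genotypes. Over all tested probe sets that median was 0.01, and over the other brightest probe sets it was 0.31. The median SD of a member gene was 0.10 in Gata6-KO and 0.20 in Gata6-WT on the log2 scale, against 0.19 and 0.20 over all genes.

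Paired by replicate number, the member median was -0.07 for number 1, -0.34 for number 2 and -0.56 for number 3, with 33, 44 and 44 of 48 genes below 0. The same median over all tested probe sets was 0.02, -0.04 and -0.02, and over the other brightest probe sets 0.14, -0.07 and -0.16. A gene was lower in Gata6-KO in all 3 numbers for 32 of 48 members (66.7%) and 28.7% of all genes, and higher in all 3 for 4.17% and 22.4%. The median difference was smallest in size for number 1, the arrays with low Xist and high Eif2s3y, and the part of sex in it was not tested.

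Control probe sets moved between arrays too. The 18 hybridization controls, which report transcripts added in fixed amounts before hybridization, had centred means of 0.19, -0.15 and 0.02 in Gata6-KO replicates 1 to 3, against -0.15, -0.01 and 0.11 in Gata6-WT replicates 1 to 3. After scaling each array to them, the member median was -0.41, -0.21 and -0.47 for numbers 1, 2 and 3, against -0.33, 0.10 and 0.08 over all tested probe sets. The 18S ribosomal RNA control probe sets stood apart in Gata6-WT replicate 3, the array highest for most members. There they had 859 (3′), 1296 (middle) and 515 (5′), against 4417 to 9236, 7268 to 13220 and 19538 to 25641 on the other 5 arrays. Without that array the member median was -0.25, with the direction kept. The ratio of 3′ to 5′ signal, a measure of RNA integrity, was 1.38 to 1.43 in Gata6-KO and 1.43 to 1.5 in Gata6-WT for Actb. For Gapdh it was 0.697 to 0.722 in Gata6-KO and 0.742 to 0.778 in Gata6-WT. Every Gata6-KO array lay below every Gata6-WT array in both ratios, for Actb only just (1.4308 against 1.4317). The part of these controls in the shift was not tested.

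**Figure D3:**
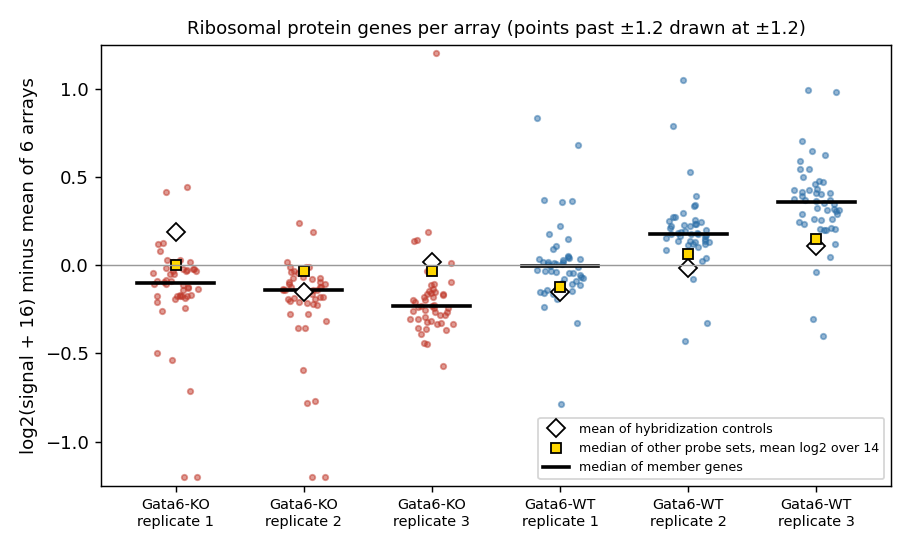
Level of the 48 member genes on each array, as log2(signal + 16) minus the mean of the gene over 6 arrays, with 1 point per gene, a bar at the member median, diamonds for the hybridization controls and squares for the other brightest probe sets. The member median lies at -0.10 to -0.23 in Gata6-KO and at -0.01 to 0.36 in Gata6-WT.

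Related genes outside the family, taken from lists of known pathway members, were tested in the same fit. They were chosen with earlier results of these data known. Over all 12511 genes 5.61% were called higher and 7.46% lower, 13.1% in all, and the lists are set beside these shares. Of 76 mitochondrial ribosomal proteins 2 rose, 1 fell and 73 did not pass the test, with a median of 0.03, so a smaller share was called than of all genes. Mrps25 rose by 0.73 ± 0.12, with 1422, 1755 and 1694 in Gata6-KO against 953, 998 and 945 in Gata6-WT (limma, adjusted p = 0.0052), a call kept in all 6 leave-one-out fits. Without Gata6-KO replicate 2 or 3 or Gata6-WT replicate 1 the list had 1 call. Fau, which encodes a small-subunit protein fused to a ubiquitin-like protein and falls outside the symbol rule, differed by -0.34 ± 0.12 and did not pass (limma, adjusted p = 0.11), although it was called lower without Gata6-WT replicate 1 (adjusted p = 0.030).

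Of 76 genes of ribosome biogenesis, which make ribosomal RNA and assemble the subunits in the nucleolus, 4 rose, 1 fell and 71 did not pass, with a median of -0.03, again a smaller share than the 13.1% of all genes. Polr1c, a shared subunit of RNA polymerases I and III, fell by 0.85 ± 0.23 (limma, adjusted p = 0.041). Nmd3, the export adaptor of the large subunit, rose by 0.68 ± 0.17 (limma, adjusted p = 0.033). Mphosph10, part of the complex that processes small-subunit RNA, rose by 0.60 ± 0.14 and Sbds, which matures the large subunit, by 0.54 ± 0.14 (limma, adjusted p = 0.026 and 0.037). These calls were kept in 1, 2, 2 and 1 of the 6 leave-one-out fits, where the adjusted p reached 0.13, 0.092, 0.082 and 0.13, and the list had 0 calls without Gata6-WT replicate 2 or without Gata6-WT replicate 3.

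Of 48 translation factors 1 rose, 6 fell and 41 did not pass, with a median of -0.18. The share called was near the 13.1% of all genes, and 33 of the 48 (68.8%) had a difference below 0, beside 53.8% of all genes. Pabpc4, a cytoplasmic poly(A)-binding protein, fell by 1.08 ± 0.18, with 1022, 716 and 1065 in Gata6-KO against 1740, 1836 and 2365 in Gata6-WT (limma, adjusted p = 0.0050). Eef2k, the kinase that inhibits the elongation factor eEF2, fell by 0.92 ± 0.12 (limma, adjusted p = 0.0015). Eif4e, the cap-binding protein, rose by 0.61 ± 0.11, with 2071, 2154 and 2318 in Gata6-KO against 1376, 1374 and 1512 in Gata6-WT (limma, adjusted p = 0.0072). Eif4b, which helps the helicase of the cap complex, fell by 0.58 ± 0.11 (limma, adjusted p = 0.011). These 4 calls were kept in all 6 leave-one-out fits, while the list had 4 calls without Gata6-WT replicate 2.

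The mTOR and Myc list takes in mTOR and Myc, the main controllers of ribosome production, with their regulators. It also holds Mdm2, Larp genes and kinases such as Eif2ak1 to Eif2ak4. Of its 45 tested genes 4 rose, 4 fell and 37 did not pass, with a median of 0.07. Over all genes 5.61% rose and 7.46% fell. Myc itself differed by -1.08 ± 0.31 without overlap between the genotypes and did not pass (limma, adjusted p = 0.056). Sesn1, which restrains mTOR when amino acids are scarce, rose by 0.89 ± 0.11, with 15708, 14316 and 14502 in Gata6-KO against 7507, 9093 and 7494 in Gata6-WT (limma, adjusted p = 9.9e-04). Lamtor4, part of the lysosomal anchor of mTOR complex 1, fell by 1.02 ± 0.15, with 4170, 3369 and 2812 in Gata6-KO against 6731, 6247 and 7851 in Gata6-WT (limma, adjusted p = 0.0030). The related Sesn2 rose by 0.73 ± 0.18 and Sesn3 fell by 0.90 ± 0.21 (limma, adjusted p = 0.030 and 0.026). Among the remaining calls Rraga rose by 0.67 ± 0.14 and Rragc by 0.60 ± 0.11 (limma, adjusted p = 0.015 and 0.0087). Tsc2 fell by 0.72 ± 0.18 and Mxi1 by 0.60 ± 0.13 (limma, adjusted p = 0.036 and 0.015). What these calls mean together for mTOR activity was not tested. The calls of Sesn1 and Lamtor4 were kept in all 6 leave-one-out fits, and those of Sesn2 and Sesn3 in 1, where the adjusted p reached 0.093 and 0.10. The list had 4 calls without Gata6-KO replicate 2 or 3 or Gata6-WT replicate 2, and 5 without Gata6-KO replicate 1.

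**Figure D4:**
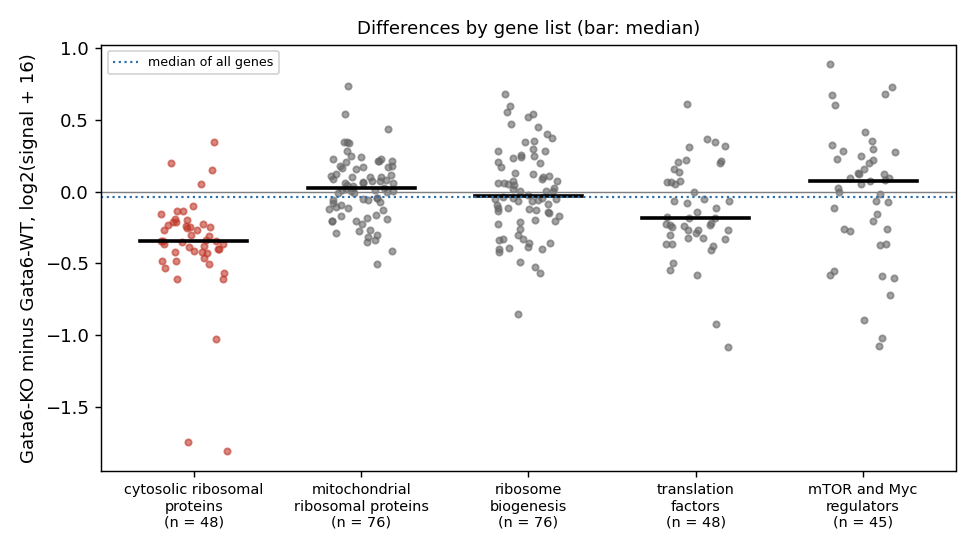
Difference between Gata6-KO and Gata6-WT per gene on the log2(signal + 16) scale, for the member genes and 4 related lists, with 1 point per gene and a bar at each median. The member median lies at -0.34, and the medians of the related lists lie between -0.18 and 0.07 around the -0.04 of all genes.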

How the data were processed

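Each of the 6 samples gave 1 array. The submitters' processing notes name MAS5 and affy without versions. The deposited values are linear intensities per probe set, and their mean without the top and bottom 2% is 500 on each array, so the authors scaled them to a common trimmed mean. MAS5 subtracts mismatch signal, which makes low values noisy.

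Intensities were turned into log2(signal + 16). The 64 control probe sets were set aside, and probe sets with a mean log2 value above the 40th percentile (5.99, a signal of 47.5) were tested, 27022 in all, with limma 3.58.1 in R 4.3.3 (lmFit, eBayes with trend, two-sided, Benjamini-Hochberg adjustment over all tested, threshold 0.05). Each gene stands for the brightest of its tested probe sets. The fit was tested on simulated data. Figures used matplotlib 3.10.9 in Python 3.11.15. The number of arrays limits the precision.

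Symbols came from the array's annotation table. The symbol rule left out 110 probe sets with several symbols that include a ribosomal protein, among them 31 further symbols. Promoters came from RefSeq, GRCm38.p6. Members and lists were chosen with earlier results of these data known. Named in full are the Rps9 probe sets, up to 8 member genes with the largest difference in each direction, paralog pairs, and up to 4 called genes per related list with the largest change; other members are named as examples. The Rps9 neighbours were added after values were seen, as were Myc and the further calls of the mTOR and Myc list. Followed over the alternative settings were the genes named in full except Rpl7, and Fau, Mboat7, Tsen34 and Cnot3. Myc, those further calls, the other neighbours and the members named as examples were not followed. Alternatives varied the pseudocount, filter, normalization, variance trend, threshold, probe set of a gene and arrays.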

Additional observations from a re-analysis of the deposited data

How the results depend on the processing

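The member median of -0.34 stayed below 0 in every setting run, between -0.47 (replicates 2 and 3 only) and -0.21 (quantile normalization), with -0.38 after scaling to the hybridization controls and -0.28 after median scaling over the tested probe sets, both chosen after seeing the data. The 3 Rps9 differences kept their direction in every setting. The count of 17 member probe sets called lower was 10 with no filter, 28 with quantile normalization and 6 without the variance trend. It was 32 with replicates 2 and 3 only and 7 at an adjusted p under 0.01, and it ranged from 9 to 45 without 1 array. The count of members called higher was 0 in every setting. Over all probe sets the count called lower moved as well. It was 1532 in the main fit, 669 to 1706 over all settings and 926 to 1227 without 1 array. The count of genes whose probe sets differ by over log2 1 was 3 with a pseudocount of 1 or with no filter, 2 with replicates 2 and 3 only, and 1 to 3 without 1 array. Calls in the related lists numbered 5 for ribosome biogenesis, 7 for translation factors, 8 for mTOR and Myc regulators and 3 for mitochondrial ribosomal proteins. They were 0, 3, 3 and 1 without the variance trend and, scaled to the hybridization controls, 1, 3, 5 and 0. With replicates 2 and 3 only ribosome biogenesis had 1, the mTOR and Myc list 5 and mitochondrial ribosomal proteins 1. The mTOR and Myc list had 5 with no filter and ribosome biogenesis 8 with a filter at the 60th percentile. Without 1 array the ranges were 0 to 3, 4 to 8, 4 to 7 and 1 to 2, and Fau, alone in its list, gave 0 to 1 calls. Among the genes followed over the settings no difference changed sign except those of Rps27, Rps29, Rpl27a, Rpl39 and Rps4x, none of which was called. Fewer arrays in a fit mean fewer degrees of freedom, and the cause of the other moves was not tested. Low signals limit what dim probe sets show.

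Samples that share a replicate number correlated at r = 0.13, 0.07 and 0.07 in their deviations from the group means over 27022 probe sets. Samples of unlike numbers correlated at -0.07 to -0.01, so each sample correlated best with its own number. Not all same-number values were above 0.1, the limit used here, so the main fit left the number out. That limit does not exclude a pairing. The replicates numbered 1 read as male in both genotypes and the others as female, so the number also separates sex. With the replicate number as a block 14 member probe sets were called lower and 0 higher, against 17 and 0 without it, the related lists had 5, 6, 8 and 3 calls, and the differences and medians kept their values.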
